A study of Sus scrofa with 2 samples.

Results

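The genes described here handle calcium in the muscle fibre: the pumps that refill the sarcoplasmic reticulum, the proteins that hold calcium inside it, the cytosolic buffer parvalbumin, the ryanodine receptor release channels and the proteins that hold the release site together. Entries were taken from the joined RNA-seq tables of both libraries if their symbol was ATP2A1, ATP2A2, CASQ2, LOC100156448, PVALB1, RYR1, SLN, SRL or TRDN, or if their best protein match was named as a sarcoplasmic/endoplasmic reticulum calcium ATPase, calsequestrin, parvalbumin, ryanodine receptor, sarcolipin, sarcalumenin, triadin or junctophilin. This gave 16 of the 12535 entries with a read in either library, lying at 15 Ensembl loci. Of the 9 symbols, 5 were found as symbols, and the other 11 entries were found through their protein match. SLN, which encodes sarcolipin, a small peptide that inhibits the pump, had no listed entry and was not analysed here.

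Each library was made from a pool of RNA from the biceps femoris muscle of newborn cloned piglets, made by somatic cell nuclear transfer and sampled at day 1 after birth. The abnormal cloned group held 3 piglets labelled as developmental failure, with an enlarged tongue, difficulty in standing and walking, and a protruding navel. The normal cloned group held 4 piglets in the study's methods and 3 in the sample labels. All 3 abnormal piglets and 2 of the normal piglets came from fibroblasts of a day 35 embryo, while the other 2 normal piglets came from ear fibroblasts of another pig. Both donors were male large white pigs. Since the groups differed in donor and each was a single pool, phenotype, donor and individual cannot be told apart, and every test below compares 2 libraries and not 2 conditions.

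In skeletal muscle, an action potential in the transverse tubule opens the ryanodine receptor in the facing membrane of the sarcoplasmic reticulum, and the calcium that flows out starts contraction. The calcium pump then returns it to the reticulum, where calsequestrin binds it, and in fast fibres parvalbumin binds calcium in the cytosol and speeds relaxation. Fast fibres mainly use the pump ATP2A1, while slow fibres and the heart mainly use ATP2A2. CASQ1 is the main calsequestrin of skeletal muscle, and CASQ2 is the heart form that slow fibres also carry.

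The abnormal library held 6.38 M unique reads and the normal library 6.52 M, so that 3 reads corresponded to 0.470 and 0.460 RPM, the reads scaled to the library total. Mitochondrial transcripts took 36.0% of the abnormal and 46.1% of the normal reads, and the median log2 ratio (abnormal over normal) was 0.36 over the 7493 genes that had 10 or more reads in each library. Median-ratio rescaling, which lowers all log2 ratios by that amount, was therefore also applied. A ratio given without a rescaled value is one before rescaling. Skeletal muscle markers were abundant in both libraries, although of their 5 entries NEB (log2 ratio 1.52) and MYOT (1.27) were called up and 1 of the TTN entries (-1.13) down by the thresholds described next. Of the defining heart markers the only listed entry was MYH6, with 2 and 7 reads. Of the markers of other cell types in the tissue, the 3 red blood cell entries summed to 1275 RPM in the abnormal against 1896 RPM in the normal pool, and the 3 nerve and glia entries to 26.8 against 16.6 RPM. Smooth muscle entries summed to 359.7 and 448.8 RPM, fibroblast entries to 5039 and 5604 RPM, endothelium to 152 and 140 RPM, macrophage to 23.5 and 26.9 RPM, and fat to 0.630 and 0.310 RPM. No entry for these other cell types passed the thresholds, and the part of cell composition in the results below was not tested. In pooled bulk RNA, fewer fibres of a kind and less RNA per fibre cannot be told apart.

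A gene was called a differentially expressed gene (DEG) at a false discovery rate (FDR) of at most 0.001 in the Audic-Claverie test on the reads and a log2 ratio of RPKM (unique reads per kilobase of transcript, scaled to the library total) of at least 1 in size. Intervals are 95% Wilson intervals and cover counting error only. By this rule 3 of the 16 entries were up-regulated in the abnormal library, namely PVALB, JPH1 and 1 of the RYR1 entries, and 0 were down-regulated, where 12.0% of all genes were called up and 1.45% down. After median-ratio rescaling the count was again 3 up and 0 down, against 6.48% and 3.97% of all genes. The members' share of up calls, 18.75%, stands on PVALB, JPH1 and 1 of the entries that share the RYR1 locus, whose other entry was lower in the abnormal library. A further 6 entries passed the FDR but not the fold threshold. Where a coefficient of variation of 0.2 between libraries was assumed (edgeR exact test), PVALB alone was still called, and with 0.4 none of them was.

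**Figure D1:**
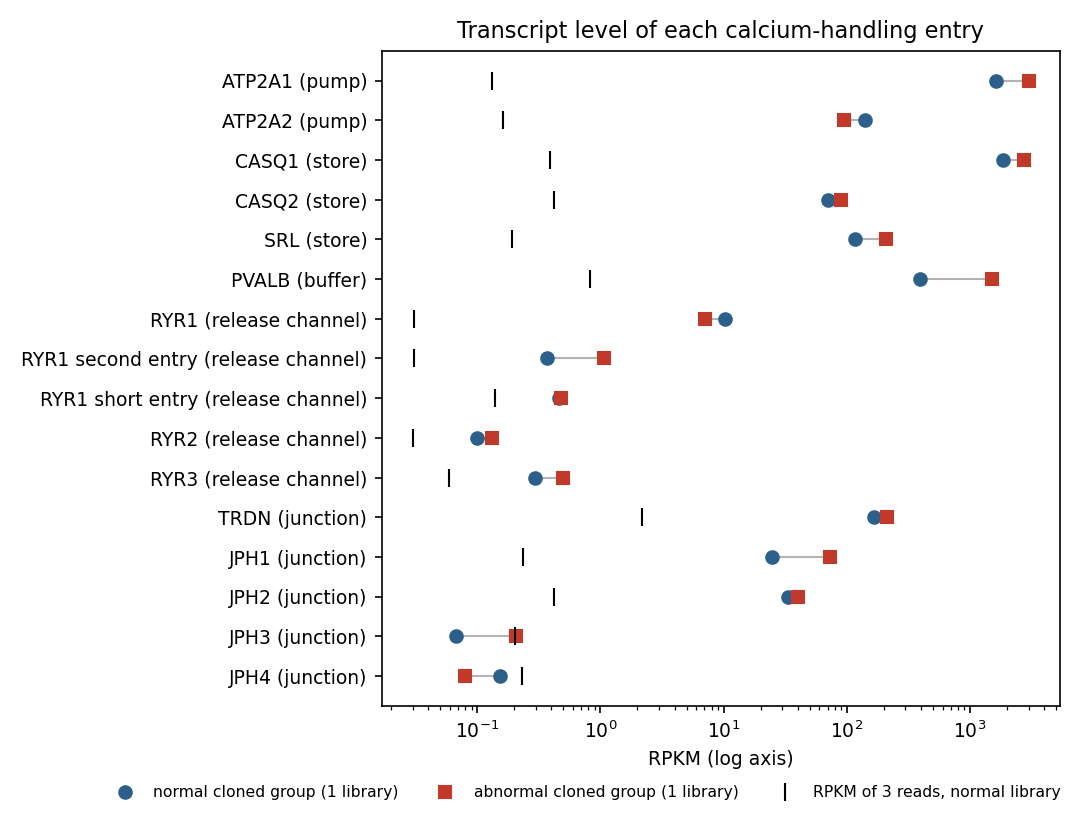
RPKM of each of the 16 entries in the abnormal (squares) and normal (circles) library on a log axis, with a tick at the RPKM that 3 reads give in the normal library. ATP2A1, CASQ1 and PVALB lie highest, the RYR1 entries lie far below the other skeletal muscle forms, and JPH3 and JPH4 lie near or below the tick.

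The 16 entries took 1.59% of the abnormal and 0.917% of the normal unique reads, and without mitochondrial transcripts 2.48% and 1.70%. Nearly all of these reads came from pumps and store proteins: the pumps alone took 1.08% and 0.608%. The log2 ratio had a median of 0.48 over all 16 entries, beside 0.35 over all 12535 genes, and after rescaling the medians were 0.12 and -0.01. The ratio was above 0 in 13 entries and below 0 in 3, and after rescaling in 11 and 5, where 66.0% of all genes tested were above 0 before and 49.7% after rescaling.

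ATP2A1 encodes SERCA1, the calcium pump of fast fibres, and lies on chromosome 3 from 16659991 to 16680428 on the plus strand of Sscrofa9, the build used throughout. It had 67243 reads in the abnormal pool against 37049 in the normal pool, or 3018 and 1627 RPKM, and ranked 25 and 45 among all genes by RPKM. The level was thus 1.85-fold higher in the abnormal library, a log2 ratio of 0.89 (0.87 to 0.91) with an FDR at the bound of 2.2e-298 in the Audic-Claverie test, but short of the fold threshold, and ATP2A1 was not called. After rescaling the log2 ratio was 0.53.

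ATP2A2, the SERCA2 pump of slow fibres and the heart that also serves as the housekeeping pump of other cells, went the other way. Its entry on chromosome 14 (31714261 to 31775391, plus strand) had 1720 reads in the abnormal pool against 2598 in the normal pool, or 94.8 and 140 RPKM. The log2 ratio was -0.56 (-0.65 to -0.48), with an FDR of 1.7e-35 in the Audic-Claverie test, and ATP2A2 was not called. After rescaling it was -0.92, just inside the fold threshold.

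The ratio of the pumps within a library does not depend on how the libraries are scaled. Per length, ATP2A1 stood 31.8-fold above ATP2A2 in the abnormal pool and 11.6-fold above it in the normal pool. The odds ratio of their reads was 2.74 (exact 95% interval 2.57 to 2.92, Fisher's exact test, two-sided, p = 3.2e-227, adjusted p = 1.3e-226 over 8 pairs of genes). The balance of pump transcripts therefore lay further towards the fast form in the abnormal library by more than counting error.

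This shift was smaller than that of the slow contractile genes. Of the 6 listed slow-fibre entries 4 were down-regulated, with log2 ratios from -3.02 to -3.52, and CSRP3, a mechanical stress gene on the same list, was up-regulated. The TPM3 entry was not called (10 and 11 reads, -0.11), but its reads covered only 5.92% and 5.57% of the transcript. The paper reports TPM3 as down-regulated in the abnormal group and at a far higher level, so this entry does not give the level of TPM3. The lowest ratio is that of MYH7, whose unique reads covered only 3.75% and 3.97% of its transcript, and the other 3 down-regulated entries lay between -3.02 and -3.18. TNNC1, slow troponin C, had 2336 reads in the abnormal pool against 21598 in the normal pool. The odds ratio of ATP2A2 to TNNC1 reads was 6.12 (5.68 to 6.60), so ATP2A2 was lower by much less than TNNC1. None of the 8 fast-fibre entries was called, with log2 ratios from -0.49 to 0.65.

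CASQ1 (LOC100156448, chromosome 4, 93723965 to 93733955, minus strand) encodes the main calsequestrin of skeletal muscle, the main calcium store of the reticulum. It had 20678 and 14463 reads, or 2729 against 1868 RPKM. The log2 ratio was 0.55 (0.52 to 0.58), and 0.19 after rescaling, and CASQ1 was not called.

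CASQ2, the heart calsequestrin that slow fibres also carry (chromosome 4, 109235600 to 109298140, plus strand), was not lower in the abnormal library, unlike ATP2A2. It had 634 and 501 reads, or 90.5 and 70.0 RPKM, with a log2 ratio of 0.37 (0.20 to 0.54) and an FDR of 9.3e-05 in the Audic-Claverie test. After rescaling the log2 ratio was 0.01, and under edgeR's TMM scaling it was -0.02, so its direction depended on the scaling. The odds ratio of CASQ1 to CASQ2 reads was 1.13 (1.001 to 1.27, Fisher's exact test, p = 0.046, adjusted p = 0.053 over 8 pairs). This planned pair passed 0.05 before adjustment and not after it, and most of the 8 pairs were chosen after their values were seen. The interval lies just above 1 and leaves room for a shift of up to 1.27-fold between the calsequestrins.

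SRL encodes sarcalumenin, a lumenal calcium-binding glycoprotein that also stabilises the pump (chromosome 3, 34146708 to 34157800, minus strand). It had 3207 reads in the abnormal pool against 1858 in the normal pool, or 207 and 117 RPKM. The log2 ratio of 0.82 (0.74 to 0.90) was close to that of ATP2A1 and was 0.46 after rescaling, and SRL was not called. Relative to CASQ1 it was higher in the abnormal library, with an odds ratio of SRL to CASQ1 reads of 1.21 (1.14 to 1.28). The entry ENSSSCG00000007948, matched to adenylate cyclase 9, overlaps it on the other strand and had 115 and 49 reads.

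PVALB (PVALB1, chromosome 5, 7325480 to 7342788, plus strand), the cytosolic calcium buffer of fast fibres, had the largest called change among the 16 entries. It had 5372 reads in the abnormal pool against 1429 in the normal pool, or 1518 and 395 RPKM, and ranked 43 by RPKM in the abnormal against 177 in the normal pool. The level was 3.84-fold higher, a log2 ratio of 1.94 (1.86 to 2.03) with an FDR at the bound of 2.2e-298 in the Audic-Claverie test, and 1.58 after rescaling. Its log2 ratio was above that of 95.8% of the genes that had 10 or more reads in each library.

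The higher PVALB level was not matched by ATP2A1, although both mark fast fibres. The odds ratio of PVALB to ATP2A1 reads was 2.07 (1.95 to 2.20, Fisher's exact test, adjusted p = 4.4e-141), for a pair chosen after its values were seen. Per length, PVALB stood at 0.503 of the ATP2A1 level in the abnormal library and at 0.243 in the normal library.

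**Figure D2:**
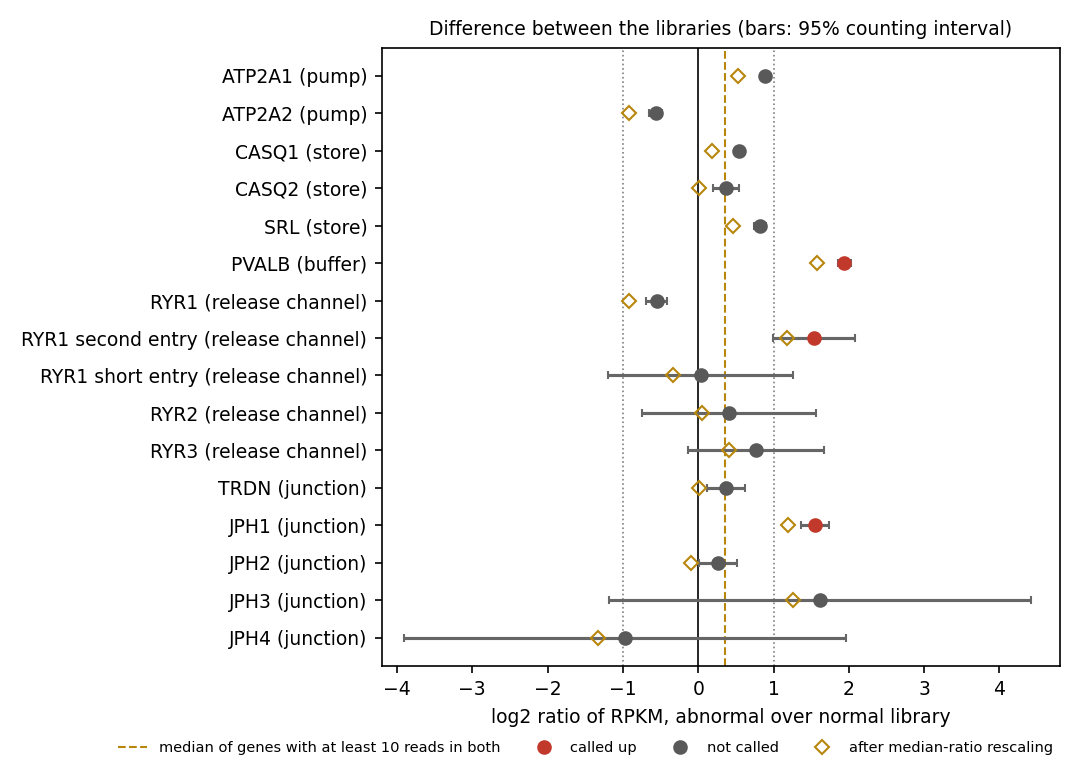
Log2 ratio of RPKM (abnormal over normal library) of each entry with its 95% counting interval, filled red where called up, with open diamonds after median-ratio rescaling. Dotted lines mark the fold threshold and the dashed line the median of all genes with 10 or more reads in each library, 0.36. The 3 called entries lie beyond the threshold under both scalings, ATP2A2, RYR1 and JPH4 lie below 0 under both, and the intervals of JPH3 and JPH4, with at most 3 reads, span most of the axis.

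RYR1 is the release channel of skeletal muscle. Its entry on chromosome 6 (32548456 to 32666600, plus strand, 15098 bases) had 675 reads in the abnormal pool against 1012 in the normal pool, or only 7.01 and 10.3 RPKM. The log2 ratio was -0.55 (-0.69 to -0.41), with an FDR of 8.2e-14 in the Audic-Claverie test, and the entry was not called. The rescaled ratio was -0.91. A second entry of the same locus (ENSSSCG00000002961, 32548456 to 32666505, 14952 bases) had 102 and 36 reads, a log2 ratio of 1.53 (0.99 to 2.08, FDR = 6.2e-08 in the Audic-Claverie test), and was called up. Its rescaled ratio was 1.17.

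The opposite ratios of these entries rest on very little of the transcript. Unique reads covered 2.82% of the first entry in the abnormal pool against 1.62% in the normal pool, about 426 and 245 bases, and 1.16% and 1.12% of the second, about 173 and 167 bases. Among the 796 entries with at least 500 normal reads the median coverage was 94.6%, and only RYR1 and MYH7 lay under 5%. Both share an Ensembl gene with another entry, as do 27 of the 796 in all.

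Only unique reads were counted, so that a read matching both entries equally counts for neither, and the part of this in the low coverage was not tested. The RPKM of RYR1 therefore cannot be read as the level of the whole transcript. The reads of both entries summed to 777 and 1048, a log2 ratio of -0.40 (-0.53 to -0.27), which was not called. The entries thus had opposite ratios, and which way the transcript of the whole locus differed cannot be read from these reads.

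**Figure D3:**
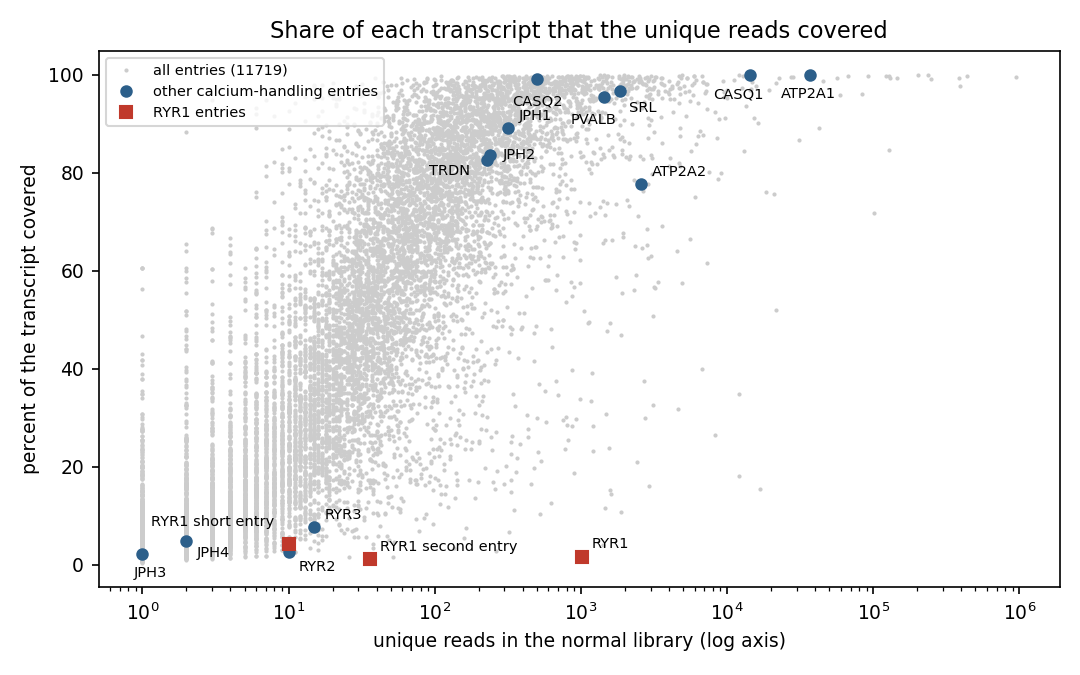
Percent of each transcript covered by unique reads in the normal library against its reads (log axis), with all 11719 covered entries in grey. RYR1, with 1012 reads and 1.62% covered, lies far below the median of 94.6% for entries with 500 or more reads, whereas the pumps, store proteins, PVALB, TRDN, JPH1 and JPH2 lie between 77.7% and 99.97%.

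The remaining ryanodine receptor entries were scarce. A short entry with a ryanodine receptor 1 protein match (ENSSSCG00000002964, chromosome 6, 32706687 to 32735141, minus strand) had 10 reads in each library. RYR2, the heart form, had 13 and 10 reads, and RYR3, a form expressed in early muscle, had 25 and 15. Their log2 ratios, 0.03, 0.41 and 0.77, all had intervals that include 0, so no difference was detectable at this depth.

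TRDN encodes triadin, which anchors calsequestrin to the release channel (chromosome 1, 41045898 to 41050920, plus strand). Its entry is only 213 bases long and had 290 reads in the abnormal pool against 229 in the normal pool, or 213 and 165 RPKM. The log2 ratio was 0.37 (0.12 to 0.62, FDR = 0.014 in the Audic-Claverie test) and 0.01 after rescaling, and TRDN was not called. Under TMM scaling it was -0.02, so that its direction, like that of CASQ2, depended on the scaling.

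Junctophilins tie the reticulum to the surface membrane and thereby form the release site. JPH1, the main skeletal muscle form (chromosome 4, 63701343 to 63898899, plus strand), had 913 reads in the abnormal pool against 319 in the normal pool, or 72.6 and 24.8 RPKM. It was up-regulated 2.92-fold, with a log2 ratio of 1.55 (1.36 to 1.73, FDR = 1.1e-67 in the Audic-Claverie test) and 1.19 after rescaling.

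JPH2, the heart form that skeletal muscle also carries (LOC100155350, chromosome 17, 48427877 to 48432696, plus strand), did not pass. It had 282 and 240 reads, or 40.1 and 33.4 RPKM, a log2 ratio of 0.26 (0.02 to 0.51) and an FDR of 0.11 in the Audic-Claverie test. The ratio turned to -0.10 after rescaling. Another entry, ENSSSCG00000007368, overlaps JPH2, and its effect on the unique reads was not tested. The odds ratio of JPH1 to JPH2 reads was 2.43 (1.95 to 3.03, Fisher's exact test, adjusted p = 7.3e-16). This pair was chosen after its values were seen, so the test adds no support to the difference in calls. Per length, JPH1 lay below JPH2 in the normal library, at 0.743 of its level, and above it in the abnormal library, at 1.81. JPH3 had 3 and 1 reads and JPH4 had 1 and 2, at or under the floor of 3 reads.

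**Figure D4:**
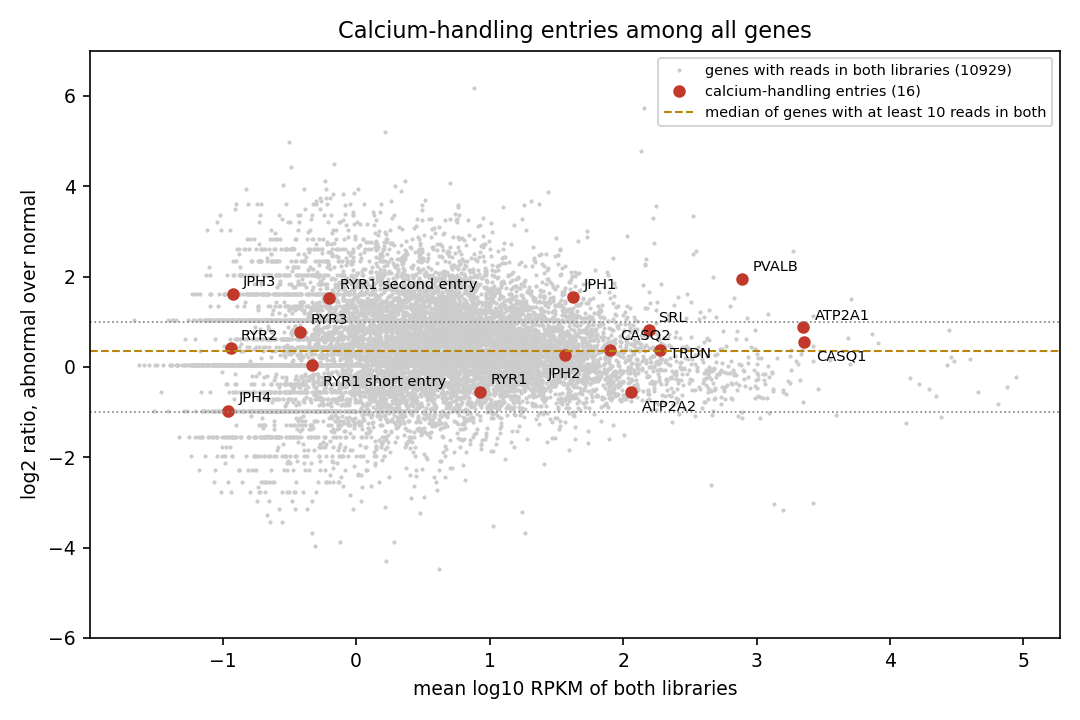
Log2 ratio (abnormal over normal library) against the mean log10 RPKM of both libraries for 10929 genes with reads in both (grey) and the 16 calcium-handling entries (red). PVALB has a log2 ratio of 1.94, ATP2A1 and CASQ1 lie at the top of the expression range, and the other entries lie within the cloud.

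Other genes of calcium handling were read from a list of 113 symbols in 9 roles, of which 81 genes were found with 84 entries. Of these, 17 were up-regulated and 1 was down-regulated, and after median-ratio rescaling 9 were up-regulated and 2 down-regulated, beside 12.0% and 1.45% of all genes before and 6.48% and 3.97% after rescaling. These shares are also the background of the counts by role below, all of which rest on at most 3 up calls. The 8 called up only before rescaling were CACNA1C, TRIM72, ITPR3, STIM1, STIM2, CANX, CALU and HSPA5, and FKBP1B, with 3 and 19 reads, was called down only after it. The 61 entries that had 10 or more reads in each library showed a median log2 ratio of 0.34, beside 0.36 for all such genes.

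Among the partners of the release channel, 3 of 16 entries were called up, and after rescaling 2 were called up and 1 down. These were HOMER1, a scaffold protein (log2 ratio 1.69), MTM1, a lipid phosphatase needed for the triad (1.60), and TRIM72, a membrane repair protein (1.11). HRC, a lumenal calcium-binding protein that joins triadin to the pump, had 1440 reads in the abnormal pool against 2099 in the normal pool. It was not called, at -0.51 before and -0.87 after rescaling. HRC thus lay on the side of ATP2A2 and not of CASQ1, with an odds ratio of HRC to CASQ1 reads of 0.480 (0.447 to 0.515).

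Of the 5 entries of the voltage sensor, which starts release, CACNA2D1, an auxiliary subunit, was up-regulated with 690 reads in the abnormal pool against 112 in the normal pool (2.65), and CACNA1C, the heart form of the pore, with 80 and 32 (1.35). The CACNA1C entry, matched by protein name, had only 13.6% of its transcript covered in the abnormal and 18.4% in the normal pool. It was not called after rescaling (0.99). The skeletal muscle subunits CACNB1 and CACNG1 were not called, at 0.36 and -0.01. CACNA1S, the pore of the skeletal muscle sensor, had no match and was not analysed here.

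None of the 3 regulators of the pump was called. PLN, phospholamban, which inhibits ATP2A2, had 384 reads in the abnormal pool against 563 in the normal pool, a log2 ratio of -0.52. Its rescaled ratio was -0.88. The odds ratio of PLN to ATP2A2 reads was 1.03 (0.890 to 1.19, Fisher's exact test, p = 0.69), an interval that includes no difference and a 1.19-fold one. DHRS7C, an enzyme of the reticulum and the most abundant of this role, had 1708 and 1966 reads, a log2 ratio of -0.17.

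Of the store-operated entry genes 2 of 8 entries were called up, 0 of them after rescaling, and of the mitochondrial uptake genes 2 of 9 under both scalings. Both sensors of store filling, STIM1 (1.07) and STIM2 (1.23), were up-regulated, whereas their channel ORAI1, with 222 and 230 reads, was not called, at -0.02. MCU, the pore of the mitochondrial uniporter, had 417 reads in the abnormal pool against 136 in the normal pool (1.65) and was up-regulated, as was LETM1 (1.60), a mitochondrial inner membrane protein.

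Of the release channels outside the ryanodine family, ITPR3 was up-regulated (1.31), with 112 and 46 reads, but was not called after rescaling (0.96). SLC8A3, a sodium-calcium exchanger, was the 1 called entry of 9 in export (1.36). Among 12 buffers and chaperones, HSPA5 (1.31), CANX (1.03) and CALU (1.09), all proteins of the endoplasmic reticulum, were up-regulated. None of them was called after rescaling (0.95, 0.67 and 0.73). CALR, calreticulin, with 2533 and 2288 reads, was not called, at 0.18 before and -0.18 after rescaling.

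In calcium-dependent signalling 3 of 19 entries were up-regulated and 1 was down-regulated under both scalings, where 12.0% of all genes were called up. The calcineurin subunits PPP3CB (1.77) and PPP3R1 (2.05) and the calcineurin regulator RCAN1 (2.14) were up-regulated. The subunit entries PPP3CC (436 and 314 reads, 0.50) and PPP3CA (3 and 1 reads) were not called. RCAN2, a related regulator, was down-regulated with 54 reads in the abnormal pool against 121 in the normal pool (-1.13).

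**Figure D5:**
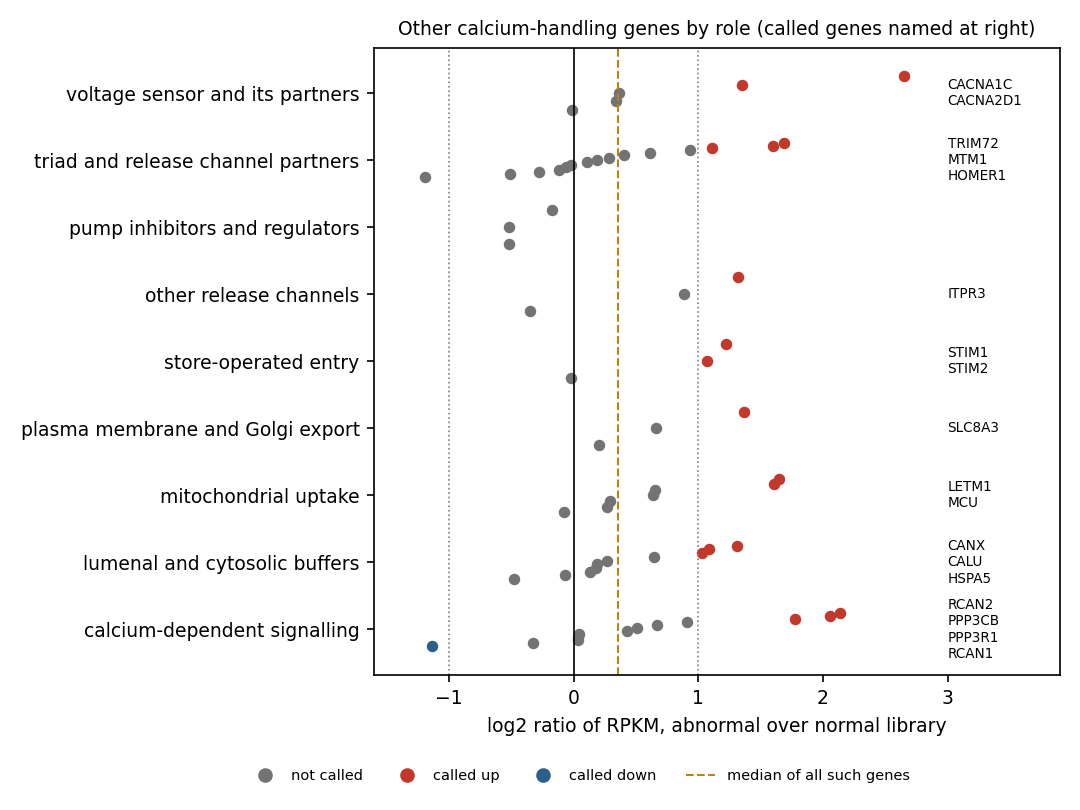
Log2 ratio (abnormal over normal library) of the 61 listed calcium-handling entries that had 10 or more reads in each library, by role, with called genes in colour and named at the right. The 17 genes called up fall in 8 of the 9 roles, the pump regulators hold 0, and RCAN2 is the 1 gene called down.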

How the data were processed

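RNA-seq of 1 abnormal and 1 normal pool of cloned piglet biceps femoris was read from the authors' tables. With SOAPaligner/soap2 and up to 2 mismatches, the authors aligned reads to transcripts of Sscrofa9 and deposited a count of unique reads per transcript. RPKM values and the percent of each transcript's length covered were likewise deposited by the authors. Tables were joined by identifier, and an absent transcript was taken as 0 reads, with RPKM 0 set to 0.001.

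The two-sided Audic-Claverie test, by doubling, was run on the counts with Benjamini-Hochberg adjustment over 12535 genes, p-values being bounded at 1e-300. It is not symmetric, and the abnormal reads were tested given the normal reads, the denominator of the ratio. This direction was chosen after the calls under both had been seen. Pairs of genes were compared with Fisher's exact test. The pumps and the calsequestrins were planned, and the other 6 pairs were chosen after their values were seen. The reads of both RYR1 entries were also summed after their values were seen. Python 3.11.15, scipy 1.17.1 and edgeR 4.0.16 were used, and the test was checked on simulated counts. Library totals of 6.38 M and 6.52 M reads set the precision.

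The members and lists were chosen with earlier results of these data known. All members were named and, from the calcium list, each called gene and otherwise the gene with the most reads in a role. CACNB1, CACNG1, FKBP1B, HRC, PLN, ORAI1, CALR, ATP2A3, PPP3CA and PPP3CC were also named after their values were seen. The same holds for the protein-name matches of listed genes without a symbol match. Alternatives were other scalings, tests, filters and thresholds. Listed genes without a match were not analysed here, and some items are not reported here.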

Additional observations from a re-analysis of the deposited data

How the results depend on the processing

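With 1 library per group, no replicate could be left out. No paired analysis was possible because each group has 1 library. Of all genes, 1510 were called up and 182 down. Median-ratio rescaling gave 812 and 498, TMM 751 and 548, and totals without mitochondrial transcripts 987 and 369. The edgeR exact test gave 243 and 20 with an assumed coefficient of variation of 0.2, and 2 and 1 with 0.4. An FDR of at most 0.05 gave 342 down. Conditioning the Audic-Claverie test on the abnormal library, an alternative added after the data were seen, gave 1542 up and 176 down and changed no call among the 16 entries.

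Of the 3 entries called up, 1 (PVALB) was called with an assumed variation of 0.2 and 0 with 0.4. Adding 1 to each RPKM lowered the second RYR1 entry to 0.60, under the threshold. In the wider calcium list, up calls fell from 17 to 9 (median ratio), 8 (TMM), 2 (variation of 0.2) and 0 (0.4). Down calls went from 1 to 2 under each rescaling, to 0 under either assumed variation and to 3 at an FDR of at most 0.05.

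Direction turned for CASQ2 (-0.023) and TRDN (-0.022) under TMM and for JPH2 under median ratio (-0.10) and TMM (-0.13). The short RYR1 entry turned to -0.33, -0.36 and -0.22 under median ratio, TMM and without mitochondrial transcripts. The summed RYR1 entries of the locus gave -0.40, a sign set by the first entry, which held most of the reads. The share of CASQ1 in calsequestrin reads differed by 0.373 percentage points, with overlapping Wilson intervals. The cause of these changes was not tested beyond the scaling itself.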
